A study of Mus musculus with 67 samples.

Results

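The genes of the cyclin-dependent kinase (CDK) inhibitors are a set of 7 among the 29579 rows of a bulk RNA-seq table from mouse small intestinal organoids and crypts. They were chosen by name, as Cdkn1a, Cdkn1b, Cdkn1c, Cdkn2a, Cdkn2b, Cdkn2c and Cdkn2d, and all 7 were found in the table, which gives TPM, a read level per transcript length that adds up over all transcripts of a library to a fixed total. The rows of this table summed to 983801 to 988144 TPM in organoids and 819346 to 910935 TPM in crypts, so their total was not the same in each library. Of the 67 libraries, 49 came from organoids (10 media) and 18 from crypts (9 groups). All 7 genes passed the filter, a mean TPM of 1 or more, in the organoid comparisons, except Cdkn2a in the comparison of 8C -VE with ENR, and 6 passed it in the crypts, where Cdkn2a did not.

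CDK inhibitors hold cells back from entering and completing the division cycle. The Cip/Kip proteins, p21 (Cdkn1a), p27 (Cdkn1b) and p57 (Cdkn1c), bind complexes of cyclins with their kinases, whereas the INK4 proteins, p16 (Cdkn2a), p15 (Cdkn2b), p18 (Cdkn2c) and p19 (Cdkn2d), bind CDK4 and CDK6 and keep the retinoblastoma protein active. Cdkn2a also encodes Arf, a protein in another reading frame that stabilises p53, and its locus is a textbook target of Polycomb repressive complex 2 (PRC2), which methylates histone H3 at lysine 27 through its subunit EZH2. In the gut, p21 is induced by p53 after DNA damage, and p27 and p57 are known from cells that leave the cycle.

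The organoids were grown from small intestinal crypts of mice 6 to 12 weeks of age. ENR medium held EGF (50 ng/mL), Noggin (100 ng/mL) and R-Spondin 1 (500 ng/mL). The 8C medium held EGF (50 ng/mL), FGF2 (bFGF, 20 ng/mL), R-Spondin 1 conditioned medium (10%), the BMP receptor inhibitor LDN193189 (0.2 µM), the GSK-3 inhibitor GSK3iXV (0.1 µM), the p38 inhibitor Pexmetinib (1 µM), the histone deacetylase inhibitor valproic acid (VPA, 500 µM) and the EZH2 inhibitor EPZ6438 (2 µM). In 8C -V, 8C -E and 8C -VE the VPA, the EPZ6438 or both were left out, so that 8C -V kept EPZ6438 and 8C -E kept VPA. In 8C -bFGF, 8C -EGF, 8C -GSK3i and 8C -Pex, 1 other component was left out while VPA and EPZ6438 stayed, and in ENR +VE both compounds were added to ENR medium at doses not given in the sources used here. ENR, 8C, 8C -VE and 8C -E had 7 libraries each, 8C -V had 6, and the other groups had 3. The crypts came from unirradiated mice (Normal) and from mice at 1, 2, 3 and 5 days after a single dose of 12 Gy (IR), with or without a gavage each day of VPA at 40 mg/kg together with EPZ6438 at 0.6 mg/kg (IR +VE), with 2 libraries in each group; the irradiation experiments used 8-week-old female C57BL/6 mice, and no separate age is given for the Normal group. Figure legends of the study speak of separate mice for organoids and for crypts, but the labels tie no library to an animal, and more than 1 organoid library of a group may come from the same mouse. The p-values measure the spread between these libraries, part of which may be technical. Organoids and crypts were never compared with each other.

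The organoid libraries held epithelial cells with few others. The summed level of 8 epithelial markers lay between 7645 and 14396 TPM over the organoid groups, that of 12 immune cell markers at no more than 4.95 TPM and that of 12 stromal, endothelial and muscle markers at no more than 6.65 TPM. Mitochondrial transcripts took 1.52% to 6.64% of the TPM in organoids. In crypts they took 10.6% to 48.4%, and immune markers summed to 138 to 221 TPM in Normal crypts and 6.38 to 99.4 TPM after irradiation without VE. TPM values carry no depth, so the counting error behind them is unknown. In bulk libraries fewer cells of a type and less RNA per cell cannot be told apart.

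The genes lie on 5 chromosomes of the GRCm38 (mm10) assembly, by the GENCODE annotation. Cdkn1a is at chr17:29090976-29100727 (+), Cdkn1b at chr6:134920401-134925513 (+), Cdkn1c at chr7:143458339-143461050 (-), Cdkn2c at chr4:109660876-109667189 (-) and Cdkn2d at chr9:21288410-21291407 (-). Cdkn2a (chr4:89274471-89294653) and Cdkn2b (chr4:89306299-89311039) are neighbours on the minus strand with 11.6 kb between them. Cdkn2a has 2 annotated protein-coding transcripts with starts 12.4 kb apart in RefSeq, the upstream start serving Arf and the downstream start serving p16, and its single row in the table merges them, so that p16 and Arf transcripts cannot be told apart. Gm44732, an antisense gene inside Cdkn1c, was listed at no more than 0.499 TPM in every library.

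The promoter windows of the 2 Cdkn2a starts and of Cdkn2b are shown because Cdkn2a separated the organoid conditions most widely and Cdkn2b is its neighbour. Each runs from 250 bases before to 50 bases after the start, 5′ to 3′ on the gene's strand, as given by RefSeq for GRCm38.p6, and capitals mark every CG dinucleotide, a motif that reads the same on both strands.
Cdkn2a upstream start, chr4:89294570-89294869 (-): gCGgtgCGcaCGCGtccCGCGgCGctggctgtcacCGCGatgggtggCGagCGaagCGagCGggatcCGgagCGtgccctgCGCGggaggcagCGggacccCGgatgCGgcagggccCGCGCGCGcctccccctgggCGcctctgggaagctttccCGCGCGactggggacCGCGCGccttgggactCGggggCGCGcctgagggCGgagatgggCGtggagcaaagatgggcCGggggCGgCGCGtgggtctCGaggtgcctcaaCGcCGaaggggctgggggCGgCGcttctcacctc
Cdkn2a downstream start, chr4:89282143-89282442 (-): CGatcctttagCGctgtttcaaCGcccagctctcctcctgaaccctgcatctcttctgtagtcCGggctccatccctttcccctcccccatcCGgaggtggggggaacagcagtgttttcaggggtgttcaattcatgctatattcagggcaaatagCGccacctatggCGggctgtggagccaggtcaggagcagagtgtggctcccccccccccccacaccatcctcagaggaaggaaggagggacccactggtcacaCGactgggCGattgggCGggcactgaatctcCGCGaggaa
Cdkn2b, chr4:89310983-89311282 (-): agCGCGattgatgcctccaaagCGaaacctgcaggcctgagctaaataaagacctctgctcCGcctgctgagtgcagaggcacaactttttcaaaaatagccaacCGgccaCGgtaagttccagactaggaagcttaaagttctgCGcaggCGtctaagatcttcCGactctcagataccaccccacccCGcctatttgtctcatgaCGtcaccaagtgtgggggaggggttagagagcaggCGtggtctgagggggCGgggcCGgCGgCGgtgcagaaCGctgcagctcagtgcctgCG
The upstream Cdkn2a window held 45 CG dinucleotides, a number that 1.93% of the 32851 promoter windows of this length reached, and the downstream window held 12, which 39.6% reached. The Cdkn2b window held 18 CG dinucleotides, which 29.7% of windows reached, and the median window held 7. Among the other genes, the 2 Cdkn2c windows held 33 and 8, Cdkn1b 30, the 2 Cdkn1a windows 23 and 2, and Cdkn2d 22. No window was used here for Cdkn1c. These counts describe the reference sequence, and no chromatin mark was measured in these libraries.

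Cdkn2a set the organoid conditions apart by EPZ6438. Its level lay between 0 and 3.94 TPM in the 21 libraries of the 3 groups without EPZ6438 (ENR, 8C -VE and 8C -E) and between 7.74 and 125 TPM in the 28 libraries of the 7 groups with it, and the ranges did not overlap. Of the 12625 genes that passed the filter over the organoids, 61 (0.483%) had every library with EPZ6438 above every library without it, Bmi1, a Polycomb subunit, among them. In ENR the 7 libraries had 0.506, 0.531, 0.721, 0.540, 0.736, 0.214 and 0.484 TPM of Cdkn2a by replicate number. In 8C -VE they had 0.797, 0.375, 0.774, 1.97, 0.361, 1.65 and 0 TPM, and in 8C -E, which holds VPA, 0.698, 0.909, 1.48, 3.94, 2.68, 2.11 and 2.52 TPM. All 21 stayed under 4 TPM. 8C -VE overlapped with both other groups, and of 8C -E only replicate 1 lay within the range of ENR.

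With EPZ6438 and without VPA, in 8C -V, the 6 libraries had 64.4, 63.9, 54.1, 44.3, 61.0 and 29.8 TPM of Cdkn2a. With both compounds, in 8C, the 7 libraries had 12.5, 97.4, 16.1, 108, 125, 105 and 7.74 TPM. The 8C libraries thus fell apart into 4 at 97.4 TPM or more and replicates 1, 3 and 7 at 16.1 TPM or less, and this spread is wider than that of any other organoid group. Replicate 7 did not go along with 1 and 3 in other genes. Cdkn1c was 30.5 and 27.9 TPM in replicates 1 and 3 and 8.40 TPM in replicate 7, and Ezh2 was 56.9, 59.7 and 25.4 TPM in replicates 1, 3 and 7 against 31.2 to 49.5 TPM in the others.

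**Figure D1:**
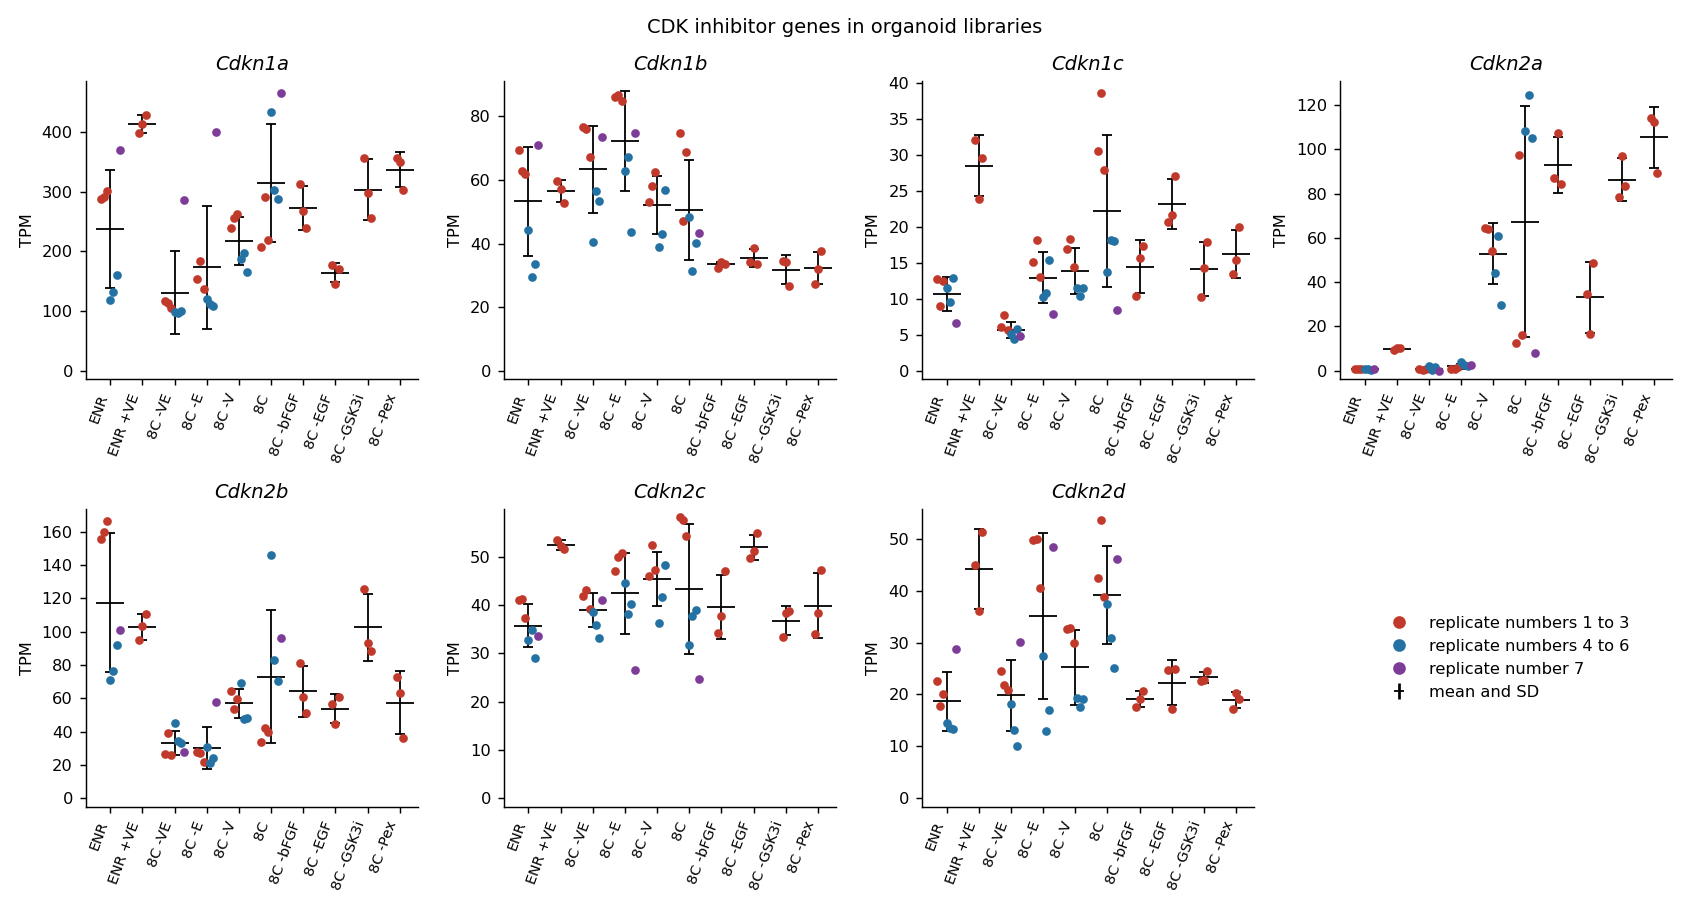
TPM (vertical axes, linear) of the 7 CDK inhibitor genes in the 49 organoid libraries by culture condition. Points are libraries, coloured by replicate number, and black bars give the mean and SD; Cdkn2a stays at or under 3.94 TPM in ENR, 8C -VE and 8C -E and is at 7.74 TPM or more in every other library.

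To ask what each compound did in the same medium, the libraries of 8C -VE, 8C -E, 8C -V and 8C were compared with limma on log2(TPM + 1). EPZ6438 alone (8C -V against 8C -VE) raised Cdkn2a by 4.91 ± 0.26 (log2 fold change ± SE, adjusted p = 5.86e-08), from a mean of 0.847 to 52.9 TPM. VPA alone (8C -E against 8C -VE) gave 0.73 ± 0.28 (adjusted p = 0.126), which passed once the replicate number was a block in the fit (0.73, adjusted p = 0.0222). Both together (8C against 8C -VE) gave 4.64 ± 0.59 (adjusted p = 1.62e-05), with a mean of 67.4 ± 52.4 TPM (SD, n = 7) in 8C. Adding EPZ6438 to VPA (8C against 8C -E) gave 3.92 ± 0.59 (adjusted p = 0.000286). The mean of Cdkn2a in 8C -VE is under the filter of 1 TPM, and the gene entered these tests through the groups in which it was high. On the scale of mean TPM, 8C -V and 8C were 62.5 and 79.5 times 8C -VE, whereas the fitted folds are differences of mean log2(TPM + 1).

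Adding VPA to EPZ6438 (8C against 8C -V) gave a Cdkn2a change of -0.27 ± 0.61 (adjusted p = 0.838), and its sign depended on which 8C libraries entered. Without 8C replicate 1 or 7 it turned positive, up to 0.12. Among replicate numbers 1 to 3 the change was -1.12 (adjusted p = 0.436), and among numbers 4 to 6 it was 1.36 (adjusted p = 0.00253), where 8C at 105 to 125 TPM did not overlap with 8C -V at 29.8 to 61.0 TPM. The interaction of the compounds, the change under both less the sum of the changes under each, was -0.99 ± 0.70 for Cdkn2a (adjusted p = 1.00), and 0 of the 7 genes passed it, beside 0.653% of all genes tested, with 0 at an unadjusted p under 0.05, beside 3.81%. Among numbers 4 to 6 the interaction was 0.56 for Cdkn2a (adjusted p = 0.572) and passed for Cdkn2b (1.36, adjusted p = 0.0478).

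**Figure D2:**
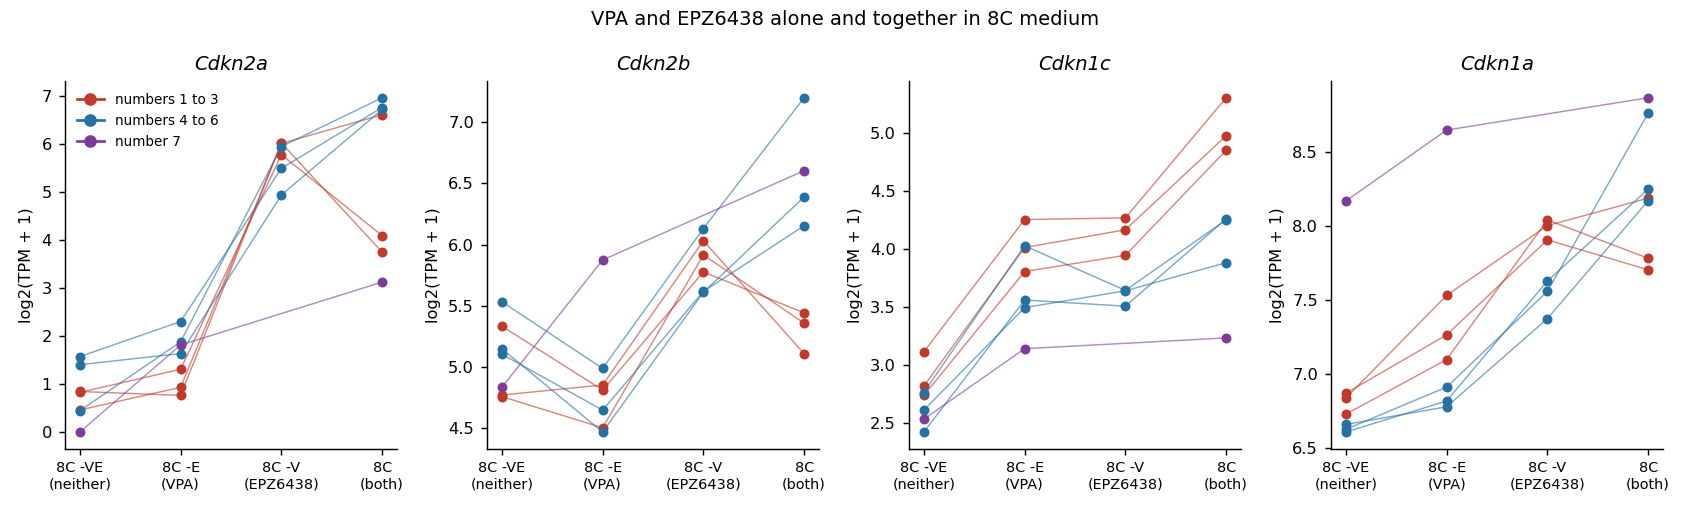
log2(TPM + 1) of Cdkn2a, Cdkn2b, Cdkn1c and Cdkn1a in 8C medium with neither compound, VPA, EPZ6438 or both. Lines join libraries with the same replicate number (number 7 has no 8C -V library); EPZ6438 lifts Cdkn2a in all 6 numbers, VPA lifts Cdkn1c in all 7, and the 8C libraries 1, 3 and 7 lie low for Cdkn2a.

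In ENR medium the compounds together raised Cdkn2a in all 3 libraries, to 9.43, 10.3 and 9.995 TPM, against 0.214 to 0.736 TPM in ENR, without overlap. The change was 2.84 ± 0.14 (adjusted p = 8.55e-08). Cdkn2a averaged 0.533 TPM in ENR, under the filter, and entered the tests of ENR +VE and of 8C against ENR through the group in which it was high. The level of ENR +VE, 9.89 ± 0.419 TPM (SD, n = 3), was under every 8C library but replicate 7. Whether the change by VE differed between the media was tested as an interaction of VE and medium, which was 1.81 ± 0.79 for Cdkn2a (adjusted p = 0.663, unadjusted p = 0.0319) and was not passed by any of the 7 genes, beside 0.643% of all genes tested (81, and as few as 36 when an ENR +VE library was left out); Cdkn2a and Cdkn2b had an unadjusted p under 0.05, beside 6.44% of all genes. Doses in ENR +VE may not be those of 8C. 8C -VE and ENR, both without the compounds, overlapped, with a mean of 0.847 ± 0.718 TPM and 0.533 ± 0.174 TPM (SD, n = 7 each).

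Cdkn2b, which encodes p15, lies next to Cdkn2a and is induced by TGF-beta signalling, was expressed in every condition and followed another order. Its libraries in ENR had 156, 160, 166, 70.7, 76.4, 91.8 and 101 TPM, and in 8C -VE 26.3, 39.3, 26.1, 45.3, 34.5, 33.4 and 27.5 TPM, so that each 8C -VE library lay below each ENR library. The change was -1.74 ± 0.21 (adjusted p = 0.00013), with -2.38 among replicate numbers 1 to 3 and -1.06 among numbers 4 to 6. EPZ6438 alone raised Cdkn2b in 8C medium by 0.78 ± 0.14 (adjusted p = 0.00314), to 64.4, 53.8, 59.3, 69.1, 47.8 and 48.1 TPM, all above 8C -VE. Among numbers 4 to 6 the change did not pass (0.52, adjusted p = 0.144). VPA alone gave -0.19 ± 0.20 (adjusted p = 0.709), with a range of 21.1 to 57.6 TPM in 8C -E, within which replicate 7 stood apart.

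In 8C itself Cdkn2b had 33.5, 42.4, 39.999, 146, 82.8, 70.2 and 96.2 TPM. The change against 8C -VE was 0.97 ± 0.28 (adjusted p = 0.0174), 0.35 (adjusted p = 0.247) among numbers 1 to 3 and 1.32 (adjusted p = 0.0037) among numbers 4 to 6. Against 8C -V the change was 0.19 ± 0.29 (adjusted p = 0.744), but among numbers 1 to 3 it passed as lower (-0.60, adjusted p = 0.0341). The change against 8C -E was 1.16 ± 0.30 (adjusted p = 0.0262), and it did not pass among numbers 1 to 3 (0.58, adjusted p = 0.0706) or when 8C -E replicate 3, 5 or 6 or 8C replicate 5, 6 or 7 was left out (adjusted p up to 0.061). Against ENR, 8C gave -0.77 ± 0.31 (adjusted p = 0.0664). This change passed with all 10 organoid groups in the fit (adjusted p = 0.00731) and after quantile normalization (-0.84, adjusted p = 0.0459). It also passed without 8C replicate 4 or 7 or without ENR replicate 4 (adjusted p 0.0148 to 0.0494). The change was -2.03 (adjusted p = 2.72e-05) among numbers 1 to 3 and 0.26 (adjusted p = 0.444) among numbers 4 to 6, and so the direction was not the same in both. ENR +VE, at 94.8, 103 and 111 TPM, lay inside the range of ENR, with a change of -0.11 ± 0.28 (adjusted p = 0.845). That value passed in opposite directions against part of ENR, at -0.64 (adjusted p = 0.000517) against numbers 1 to 3 and 0.37 (adjusted p = 0.0206) against numbers 4 to 6.

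Of the other INK4 genes, Cdkn2d rose with both compounds in either medium and Cdkn2c rose with them in ENR medium. Cdkn2c, the p18 gene, ranged from 24.8 to 58.2 TPM over all 49 organoid libraries and passed in ENR +VE against ENR, at 53.5, 52.1 and 51.5 TPM against 29.0 to 41.3 TPM (0.55 ± 0.12, adjusted p = 0.00576). With the replicate block it also passed in 8C -V against 8C -VE (0.22, adjusted p = 0.0407, from 0.21 ± 0.10, adjusted p = 0.358). Cdkn2d, the p19 INK4D gene, had 42.4, 53.6, 38.9, 37.4, 30.9, 25.1 and 46.1 TPM in 8C and 24.6, 21.8, 20.9, 18.2, 13.2, 10.1 and 30.1 TPM in 8C -VE, higher in 8C at each replicate number although the ranges overlapped. The change was 0.98 ± 0.22 (adjusted p = 0.00303). VPA alone gave 0.71 ± 0.32 (adjusted p = 0.208), which passed with the block (adjusted p = 0.00115), and EPZ6438 alone gave 0.36 ± 0.24 (adjusted p = 0.618), which with the block, in a fit without replicate 7, was 0.47 (adjusted p = 0.00303). VPA added to EPZ6438 gave 0.63 ± 0.20 (adjusted p = 0.0526), and with the block 0.58 (adjusted p = 0.00686). Against ENR, Cdkn2d rose by 1.04 ± 0.19 in 8C (adjusted p = 0.000367) and by 1.23 ± 0.23 in ENR +VE (adjusted p = 0.0028), at 45.02, 36.04 and 51.3 TPM against 13.4 to 28.8 TPM.

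Of the Cip/Kip genes, Cdkn1c, the gene of p57, rose with each compound given alone. Its 8C -VE libraries had 6.05, 7.66, 5.67, 5.11, 4.36, 5.78 and 4.79 TPM, the lowest group of all 10. VPA alone took it to 15.1, 18.1, 12.98, 10.3, 10.8, 15.3 and 7.82 TPM in 8C -E, every library above every 8C -VE library (1.04 ± 0.17, adjusted p = 0.00056). EPZ6438 alone took it to 16.9, 18.3, 14.4, 11.5, 10.4 and 11.5 TPM in 8C -V, again without overlap (1.15 ± 0.15, adjusted p = 0.000221). With both compounds, 8C had 30.5, 38.5, 27.9, 13.7, 18.2, 18.04 and 8.40 TPM (1.68 ± 0.26, adjusted p = 0.000126). VPA added to EPZ6438 gave 0.53 ± 0.28 (adjusted p = 0.264), and with the replicate block, in a fit without replicate 7, 0.73 (adjusted p = 0.00424). EPZ6438 added to VPA gave 0.64 ± 0.28 (adjusted p = 0.273), which passed without 8C replicate 7 (0.83, adjusted p = 0.0447) and among numbers 1 to 3 (1.02, adjusted p = 0.0148). It also passed with the block (adjusted p = 0.0152), but same-numbered libraries did not all deviate together here (lowest correlation 0.0433), so the number was not taken as pairing.

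Against ENR, at 6.67 to 12.9 TPM, Cdkn1c was lower in 8C -VE (-0.80 ± 0.15, adjusted p = 0.00384) and higher in 8C (0.88 ± 0.27, adjusted p = 0.018). The rise in 8C did not pass after quantile normalization (0.68, adjusted p = 0.0752). ENR +VE had the highest mean of the 10 groups, at 32.0, 23.9 and 29.5 TPM (1.35 ± 0.20, adjusted p = 0.000474). Cdkn1c is an imprinted gene, expressed mainly from the maternal copy. Its neighbours in the imprinted domain were described from a list of 13 genes, of which 11 passed the filter. In 8C against ENR 4 rose and 1 fell, where 35.1% of all genes tested passed, among them Tnfrsf22 (1.98), Phlda2 (1.015) and Slc22a18 (0.51) that rose and Trpm5 (-1.11) that fell, and in ENR +VE against ENR 5 rose and none fell, where 20.7% passed. Their median change in 8C against ENR was 0.21 beside 0.08 over all genes tested. Kcnq1ot1, the noncoding RNA that silences the domain on the paternal copy, was listed at no more than 0.12 TPM in any organoid library.

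Cdkn1a, which encodes p21, had the highest level of the 7 genes in every organoid group. Its share of their summed TPM averaged from 42.8% in 8C -EGF to 58.5% in ENR +VE, where the sum was 708 ± 23.2 TPM (SD, n = 3) against 293 ± 79.4 TPM in 8C -VE (SD, n = 7). In 8C -VE the libraries had 116, 113, 105, 97.9, 96.6, 100.1 and 287 TPM, and in 8C 207, 291, 219, 433, 303, 287 and 465 TPM. All but replicate 7 of 8C -VE lay under every 8C library. The change was 1.32 ± 0.24 (adjusted p = 0.000604). EPZ6438 alone gave 0.82 ± 0.23 (adjusted p = 0.0458), at 239, 255, 262, 187, 197 and 165 TPM. This call was lost in 11 of 13 fits that left out 1 library, the exceptions being 8C -VE replicate 7 and 8C -V replicate 6, with adjusted p up to 0.107, whereas the fit with the replicate block, without replicate 7, gave 1.03 (adjusted p = 3.21e-06).

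VPA alone gave a Cdkn1a change of 0.36 ± 0.29 (adjusted p = 0.582), at 153, 184, 136, 119, 112, 109 and 400 TPM, each above the 8C -VE library of its number, and with the block 0.36 (adjusted p = 0.00135). EPZ6438 added to VPA gave 0.95 ± 0.26 (adjusted p = 0.0381), a call lost in 11 of 14 fits that left out 1 library (adjusted p up to 0.0856), all but those without 8C replicate 1, 8C replicate 3 or 8C -E replicate 7. VPA added to EPZ6438 gave 0.49 ± 0.19 (adjusted p = 0.107), -0.09 among numbers 1 to 3 and 0.87 (adjusted p = 0.00231) among numbers 4 to 6. ENR had 288, 290, 302, 118, 132, 161 and 371 TPM, with numbers 4 to 6 the lowest. Against it, 8C gave 0.47 ± 0.27 (adjusted p = 0.197), but -0.31 (adjusted p = 0.133) among numbers 1 to 3 and 1.30 (adjusted p = 0.000353) among numbers 4 to 6. 8C -VE gave -0.85 ± 0.29 (adjusted p = 0.0861), which passed with the block (adjusted p = 0.00689) and among numbers 1 to 3 (-1.39) and 4 to 6 (-0.46). ENR +VE, at 399, 414 and 429 TPM, lay above every ENR library (0.92 ± 0.35, adjusted p = 0.0884). That change passed without ENR replicate 7 (1.05, adjusted p = 0.0392) and against ENR numbers 1 to 3 (0.50) or 4 to 6 (1.60). It also passed with all 10 organoid groups in the fit (adjusted p = 0.0294). The fit with the block rests on ENR numbers 1 to 3 alone and is not a separate result.

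Cdkn1b, the gene of p27, is controlled in large part by protein turnover. It ranged from 26.5 to 86.6 TPM over the organoid libraries and passed in none of the 14 organoid comparisons as fitted over all their libraries. It passed under some other settings, among them ENR +VE against ENR numbers 4 to 6 (0.67, adjusted p = 0.00463) and EPZ6438 added to VPA without 8C -E replicate 6 (-0.64, adjusted p = 0.0437). With the replicate block the latter comparison also passed (-0.53, adjusted p = 0.02), though the number was not taken as pairing there. All 4 omissions from 8C passed against 8C numbers 1 to 3, at 74.8, 47.1 and 68.8 TPM, with changes of -0.80 to -0.96. None of the omissions passed against 8C numbers 4 to 6, at 48.3, 31.4 and 40.2 TPM. In 8C against 8C -VE its change was -0.35 ± 0.19 (adjusted p = 0.22), with a mean of 50.5 ± 15.6 TPM in 8C and 63.4 ± 13.6 TPM in 8C -VE (SD, n = 7 each).

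Counted over the set, 3 of 7 genes passed in 8C against ENR, all higher, where 35.1% of all genes tested passed, and 4 of 7 in ENR +VE against ENR, all higher, where 20.7% passed (2552 genes, and as few as 1471 without ENR +VE replicate 1 or 2). Both counts include Cdkn2a, which passed the filter only through the group in which it was high. Of 6 genes tested in 8C -VE against ENR, 2 passed, both lower, beside 9.35%, and 3 with the replicate block, where 19.0% of all genes passed. Within 8C medium, 5 of 7 passed for both compounds (8C against 8C -VE), all higher, beside 23.4%. For EPZ6438 alone 4 of 7 passed, beside 6.05%, and 6 with the block, beside 28.0%. Both of these counts, and the count for 8C against 8C -VE, again include Cdkn2a, which is under the filter in 8C -VE. For EPZ6438 added to VPA 3 of 7 passed, beside 6.77%. For VPA alone 1 of 7 passed, beside 10.6%, and 4 with the block, beside 35.7%, Cdkn2a again among them. For VPA added to EPZ6438 0 passed with limma, beside 12.1%, with 2 at an unadjusted p under 0.05 (Cdkn1a and Cdkn2d), beside 25.4% of all genes, and 2 with the block (Cdkn1c and Cdkn2d), beside 17.9%. Without the block, the genes that passed in these comparisons within 8C medium were higher with the compound. The median change of the 7 genes was 0.98 for both compounds, 0.78 for EPZ6438 and 0.36 for VPA, beside 0.01, -0.02 and 0.03 over all genes tested. These comparisons share libraries and are not independent.

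**Figure D3:**
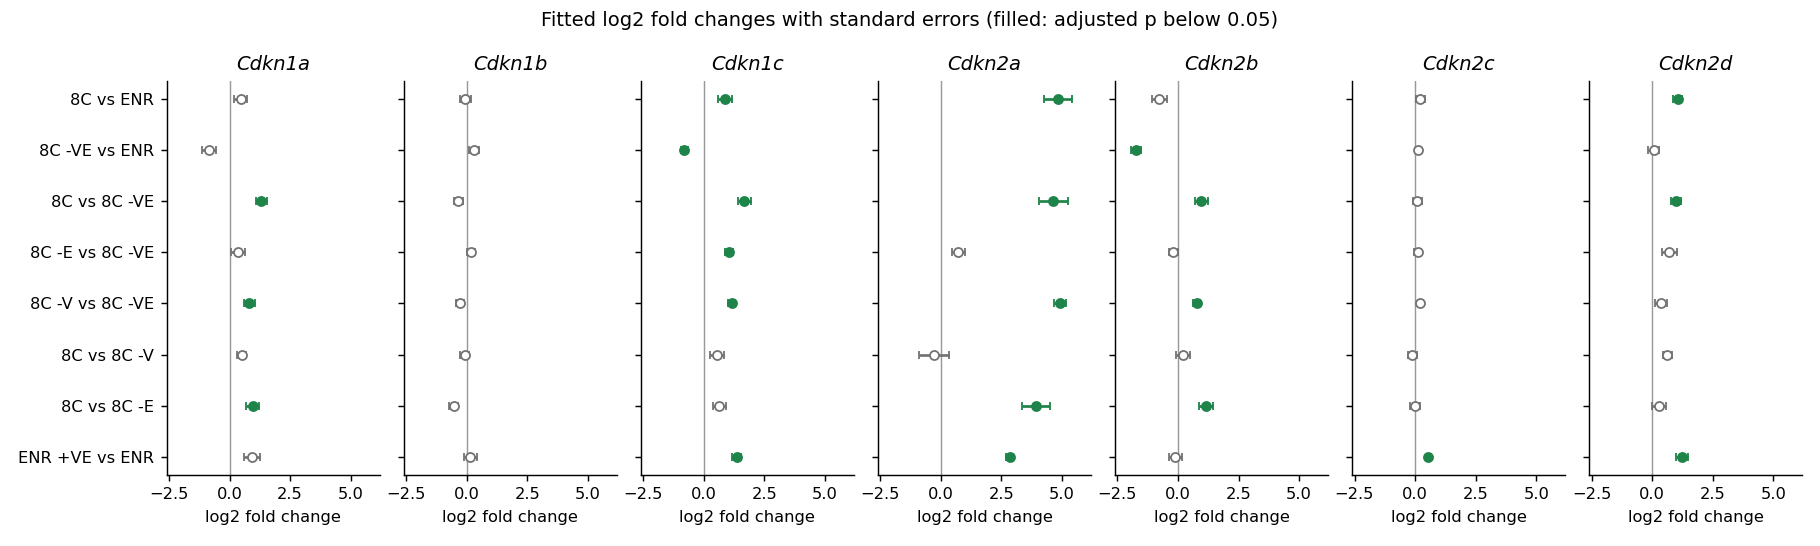
Fitted log2 fold changes of the 7 genes (horizontal axes, on the log2(TPM + 1) scale) in 8 organoid comparisons, with bars of 1 standard error. Filled green points passed at an adjusted p under 0.05; Cdkn2a lies near 4 to 5 in each comparison that adds EPZ6438 in 8C medium and at 2.84 in ENR medium, and Cdkn1b has no filled point.

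Leaving a single other component out of 8C moved 0 of the 7 genes past the threshold in each of 4 comparisons with limma, where 0.00779% (8C -bFGF), 0.514% (8C -EGF), 0.00% (8C -GSK3i) and 0.591% (8C -Pex) of all genes passed. These shares moved with single libraries, from 66 genes to between 12 and 102 for 8C -EGF (by over 1.5 times without 8C replicate 1, 3 or 6 or any 8C -EGF library) and from 76 to between 13 and 87 for 8C -Pex (without 8C replicate 1, 3, 5 or 6 or any 8C -Pex library). At an unadjusted p under 0.05 there were 2 genes in each, Cdkn1a and Cdkn2d in 8C -EGF and Cdkn1b and Cdkn2d in the others, where 5.56% (8C -bFGF), 12.7% (8C -EGF) and 6.53% (8C -GSK3i) of all genes met that threshold, and 1676 of 12860 in 8C -Pex. Cdkn2a stayed high, with 87.1, 107 and 84.4 TPM in 8C -bFGF, 78.5, 97.0 and 83.6 TPM in 8C -GSK3i, and 114, 113 and 89.4 TPM in 8C -Pex, inside the range of 8C. The fitted changes were 1.11 ± 0.85, 1.005 ± 0.85 and 1.29 ± 0.85. Against 8C libraries 4 to 6 alone they were -0.28, -0.38 and -0.10.

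8C -EGF had the lowest mean Cdkn2a of the groups of 8C medium with EPZ6438, at 34.4, 16.6 and 48.6 TPM. Against all 8C libraries the change was -0.47 ± 0.87 (adjusted p = 0.855). Against 8C libraries 4 to 6 it was -1.85 (adjusted p = 0.0245), and against libraries 1 to 3 it was 0.15 (adjusted p = 0.933), so that the choice of 8C libraries decided the direction. Cdkn1a, at 176, 146 and 170 TPM in 8C -EGF, lay under every 8C library (-0.88 ± 0.23, adjusted p = 0.131). Cdkn2d was lower than in every 8C library in all 4 omission groups, at 17.2 to 24.9 TPM. The changes were -0.77 ± 0.22 in 8C -EGF (adjusted p = 0.162) and -0.98 ± 0.21 in 8C -Pex (adjusted p = 0.0607). They were -0.96 ± 0.21 in 8C -bFGF (adjusted p = 0.804) and -0.69 ± 0.20 in 8C -GSK3i (adjusted p = 0.645).

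The media also differed in markers of epithelial cell types. The shares of all genes that passed were 35.1% in 8C against ENR, 9.35% in 8C -VE against ENR, 23.4% in 8C against 8C -VE, 10.6% with VPA alone, 6.05% with EPZ6438 alone and 20.7% in ENR +VE against ENR. All 5 enterocyte markers and 5 of 6 Paneth and goblet markers were lower in 8C than in ENR, with medians of -2.95 and -1.37, the sixth of the latter was higher, and 2 of 5 enterocyte markers were lower in 8C -VE than in ENR. In 8C against 8C -VE, 4 of 5 enterocyte and 4 of 6 Paneth and goblet markers were lower, with medians of -1.47 and -1.30. With VPA alone, 2 of 5 enterocyte, 3 of 6 Paneth and goblet and 3 of 6 enteroendocrine and tuft markers were lower and none was higher. No enterocyte marker passed with EPZ6438 alone (median -0.08) or in ENR +VE against ENR (median 0.08). Of the enteroendocrine and tuft markers, 3 of 6 were higher with EPZ6438 alone and 4 of 7 in ENR +VE, and none was lower. Of the Paneth and goblet markers 2 of 6 were lower with EPZ6438 alone and 1 of 6 in ENR +VE, and none was higher. The enterocyte markers summed to 1954 to 9669 TPM in ENR, 8210 to 9204 in ENR +VE, 1157 to 3254 in 8C -VE and 1185 to 3535 TPM in 8C. Of 5 stem cell markers 3 were higher and 1 lower in 8C than in ENR. Their summed level was nevertheless lower in 8C, at 510 to 1559 TPM against 1956 to 3560 TPM in ENR, without overlap. The part of the cell mixture in the levels of the CDK inhibitor genes was not tested.

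The partners and targets of the inhibitors were described from fixed lists. Of 13 cyclins and cyclin-dependent kinases, 3 rose and none fell in 8C against ENR, where 35.1% of all genes passed, namely Ccna1 (2.38), Ccnd3 (0.93) and Ccnd2 (0.77), with a median change of -0.07 beside 0.08 over all genes. Of 13 RB and E2F genes, which the INK4 proteins act upon through CDK4 and CDK6, 1 rose (E2f5, 0.63) and 4 fell, E2f2 (-1.01), E2f8 (-0.73) and Tfdp2 (-0.62) among them. Of 14 proliferation markers 1 fell, Mcm4 (-0.55). In 8C against 8C -VE 6 of these 14 fell and none rose, where 23.4% of all genes passed, led by Mcm5 (-0.85), Mcm4 (-0.82), Mcm3 (-0.77) and Mcm6 (-0.67), which encode parts of the replicative helicase, and the median was -0.48 beside 0.01. For EPZ6438 alone none of the 14 passed, beside 6.05% of all genes, with a median of -0.01.

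The p53 pathway induces Cdkn1a, and p53 is stabilised by Arf. Of 20 of its genes, 11 rose and 1 fell in 8C against ENR, where 35.1% of all genes passed and 72.3% of those calls were higher (47.8% after quantile normalization), with a median of 0.62 beside 0.08, led by Phlda3 (2.15), Gdf15 (1.44), Zmat3 (1.42) and Eda2r (1.26). For EPZ6438 alone 2 rose, Phlda3 (1.49) and Plk2 (0.68), where 6.05% of all genes passed. In ENR +VE against ENR 3 rose, where 20.7% of all genes passed, Fas (1.48), Phlda3 (0.83) and Zmat3 (0.71), with a median of 0.08 beside 0.09. Of 16 Polycomb subunits 3 rose with EPZ6438 alone, Bmi1 (1.66), Cbx2 (0.73) and Cbx8 (0.50), beside 6.05% of all genes. In ENR +VE 5 rose, led by Bmi1 (1.46) and Cbx2 (1.11), beside 20.7% of all genes. Bmi1, a PRC1 subunit and known repressor of Cdkn2a, averaged 91.7 ± 14.5 TPM in 8C -V (SD, n = 6) against 28.5 ± 5.59 TPM in 8C -VE (SD, n = 7). Of 4 neighbours of Cdkn2a and Cdkn2b, of which 2 were tested, Mtap rose in 8C against ENR (0.71) and in ENR +VE (0.50), and none passed with EPZ6438 alone.

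By the correlation of log2(TPM + 1) over the 49 organoid libraries, given as a description since libraries of a condition cluster, the genes most like Cdkn2a were Ddit4l (r = 0.948), Dusp22 (r = 0.927) and Chn1 (r = 0.921). Those most like Cdkn1a were Dpf3 (r = 0.868), Slc9a2 (r = 0.847) and Slc34a2 (r = 0.834). Cdkn2b was nearest to Dhrs11 (r = 0.867), Mogat2 (r = 0.866) and Scin (r = 0.836), Cdkn1c to Nrp1 (r = 0.863), Kif12 (r = 0.851) and Tead2 (r = 0.831), and Cdkn2d to Slc35g2 (r = 0.894), Adm (r = 0.870) and Phlda2 (r = 0.870). Cdkn1b was nearest to Alg6 (r = 0.895) and Cdkn2c to Spc25 (r = 0.885).

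In crypts the question was how these genes changed after irradiation and whether VE altered that. Mitochondrial transcripts took 12.7% and 18.1% of the TPM in Normal crypts and 29.7% to 48.4% at days 1 to 3 without VE, and the median change of all 10802 genes tested moved with them, to -0.36, -0.61 and -1.03 at days 1, 2 and 3 and 0.27 at day 5. Calls of the CDK inhibitor genes against Normal are therefore given also after quantile normalization, which sets the distributions of all libraries equal, while genes of other lists are given on the deposited scale alone. Immune markers summed to 27.9 to 46.0 TPM at day 1 and 138 to 221 TPM in Normal crypts. Markers of 5 stem cell genes summed to 226 to 420 TPM in Normal crypts and to 21.0 to 58.9 TPM at days 1 to 3 without VE, and enterocyte markers to 5399 to 10317 TPM in Normal crypts, 13820 to 15101 TPM at day 1, 18869 to 22393 TPM at day 2, 1428 to 4213 TPM at day 3 and 8697 to 10140 TPM at day 5. With VE, mitochondrial transcripts took 17.4% to 23.4% at day 1, against 29.7% to 31.8% without, were also lower at day 2, and overlapped at days 3 and 5. At day 3 stem cell markers summed to 59.9 to 75.2 TPM with VE and 22.4 to 27.7 TPM without. Proliferation markers summed to 223 to 381 TPM with VE at day 3 and 131 to 210 TPM without, and overlapped at day 5. The part of any of these in the changes of the crypts was not tested.

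Cdkn1a rose at every day. Normal crypts had 69.2 and 63.0 TPM, day 1 had 187 and 202, day 2 had 182 and 191, day 3 had 112 and 145, and day 5 had 127 and 130 TPM, and no irradiated library reached down to Normal. The changes were 1.54 ± 0.16 (adjusted p = 6.29e-05), 1.48 ± 0.16, 0.94 ± 0.16 and 0.95 ± 0.16 (adjusted p = 0.000786) at days 1, 2, 3 and 5, and 1.94, 1.80, 1.87 and 0.82 after quantile normalization. Relative to the median of all genes they stood 1.90, 2.09, 1.98 and 0.68 higher. Cdkn1a took 35.2% ± 0.03 of the summed TPM of the 7 genes in Normal crypts and 82.7% ± 1.13 at day 3 (SD, n = 2), shares that the mitochondrial transcripts do not enter.

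Cdkn1b fell. Normal crypts had 22.0 and 19.3 TPM and the irradiated crypts 9.28 and 9.65 at day 1, 8.02 and 7.06 at day 2, 4.39 and 4.34 at day 3 and 15.1 and 12.2 TPM at day 5. The changes were -1.05 ± 0.20 (adjusted p = 0.00482), -1.34 ± 0.20, -2.01 ± 0.20 (adjusted p = 1.71e-06) and -0.56 ± 0.20 (adjusted p = 0.0458). Relative to the median of all genes they were -0.69, -0.73, -0.98 and -0.84. After quantile normalization the value was -0.66 (adjusted p = 0.0658) at day 1 and -0.68, -0.76 and -0.84 at the later days, which passed. The call at day 5 was lost whichever of the 4 libraries compared was left out (adjusted p 0.0643 to 0.259). Cdkn1c was low in crypts, at 1.67 to 4.62 TPM, and rose at day 2, from 1.67 and 2.97 to 4.18 and 4.33 TPM (0.69 ± 0.27, adjusted p = 0.0422). That call was lost without Normal replicate 1 or either day 2 library (adjusted p up to 0.281), and was 1.35 (adjusted p = 0.00223) after quantile normalization. At day 3 Cdkn1c gave 0.05 ± 0.27 (adjusted p = 0.863), and 1.27 (adjusted p = 0.00239) after quantile normalization.

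Cdkn2b fell from 90.6 and 78.2 TPM in Normal crypts to 41.3 and 39.5 at day 2, 14.6 and 18.2 at day 3 and 49.2 and 49.004 TPM at day 5, and at day 1, at 79.0 and 80.8 TPM, it overlapped with Normal (-0.07 ± 0.16, adjusted p = 0.771). The changes at days 2, 3 and 5 were -1.04 ± 0.16 (adjusted p = 0.00023), -2.30 ± 0.16 (adjusted p = 1.38e-07) and -0.77 ± 0.16 (adjusted p = 0.00366), and -0.53, -1.20 and -0.98 after quantile normalization, all of which passed. Cdkn2c fell from 5.41 and 6.87 TPM to 2.40 and 2.07 at day 1, 1.05 and 1.44 at day 2 and 0.960 and 2.00 at day 3, and was back at 6.78 and 4.46 TPM at day 5. Its changes were -1.14 ± 0.27 (adjusted p = 0.0175), -1.67 ± 0.27 and -1.55 ± 0.27 (adjusted p = 0.000164) at days 1, 2 and 3, of which only that at day 2 passed after quantile normalization (-1.04, adjusted p = 0.00648), against -0.76 (adjusted p = 0.0819) and -0.39 (adjusted p = 0.223) at days 1 and 3. The call at day 1 was also lost without replicate 2 of Normal or of day 1 (adjusted p up to 0.114).

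Cdkn2d fell from 7.34 and 8.44 TPM to 1.53 and 1.31 at day 1, 2.13 and 1.64 at day 2 and 2.81 and 1.21 at day 3, and stood at 5.39 and 3.71 TPM at day 5. Its changes were -1.87 ± 0.30 (adjusted p = 0.00147), -1.63 ± 0.30 and -1.61 ± 0.30 (adjusted p = 0.000231) at days 1, 2 and 3, and after quantile normalization -1.53, -0.95 and, no longer passing, -0.37 (adjusted p = 0.37). Cdkn2a, at 0 to 0.485 TPM in all 18 crypt libraries, was under the filter and not tested. Over the set, 4, 6, 5 and 3 of 6 genes passed at days 1, 2, 3 and 5, where 12.8%, 52.9%, 74.4% and 27.2% of all genes did, so the counts at days 2 and 3 stand against a background in which most genes passed. Leaving out 1 library moved the number of all genes that passed at day 1 from 1378 to between 304 and 2845, whichever of the 4 libraries it was. At day 2 the number, 5711, was 3184 without Normal replicate 2, and at day 5 it went from 2937 down to 1280, by over 1.5 times without Normal replicate 1 or either day 5 library.

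**Figure D4:**
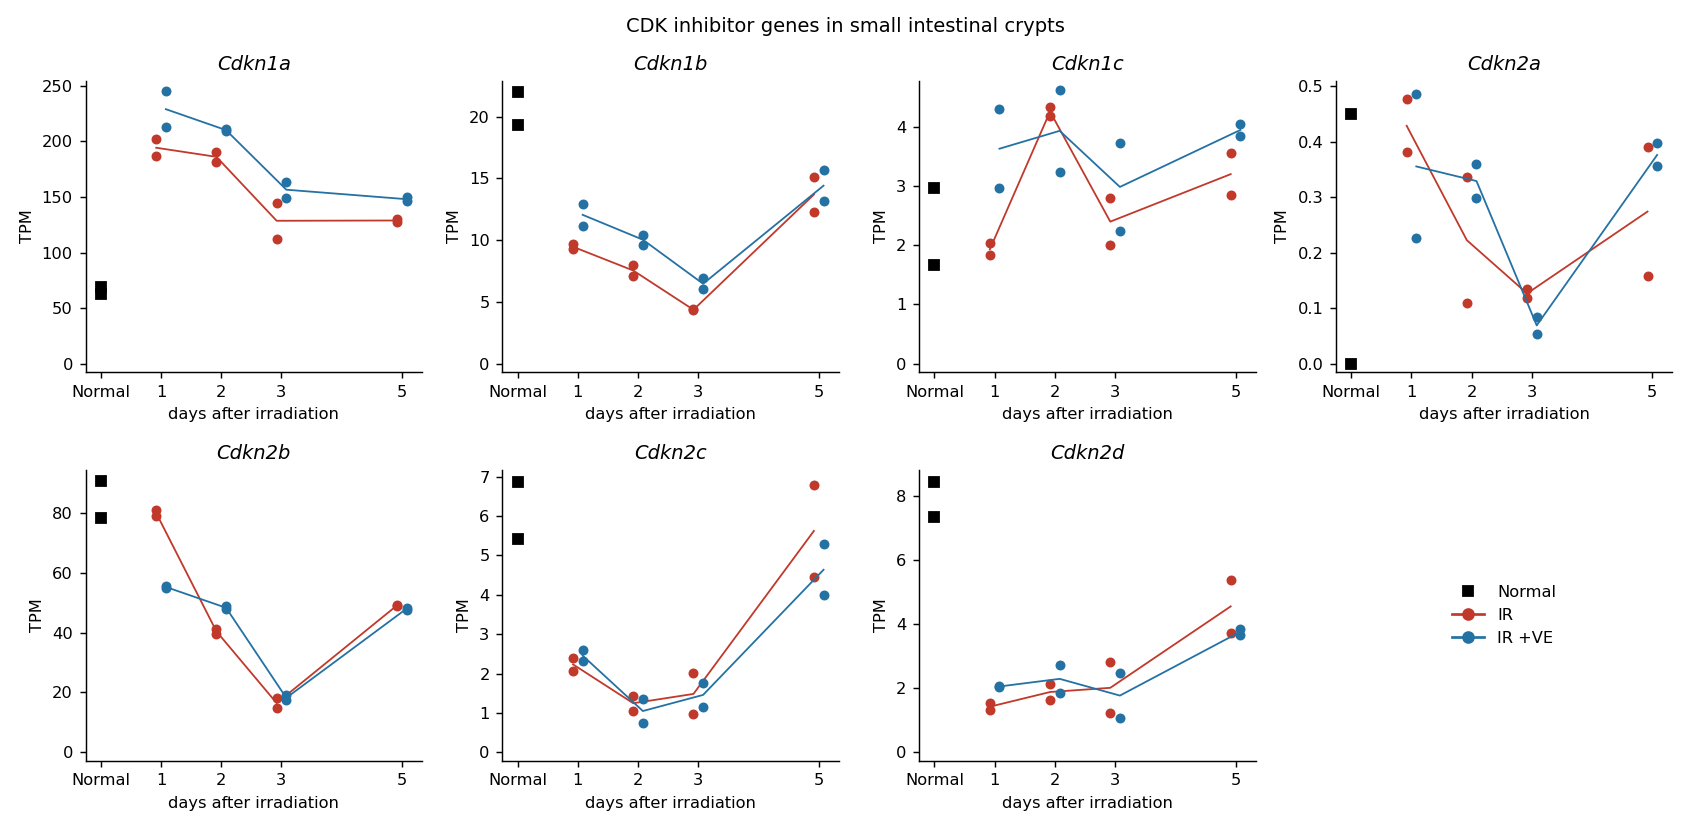
TPM (vertical axes, linear) of the 7 genes in Normal crypts (black squares) and 1, 2, 3 and 5 days after irradiation without (red) and with (blue) VE. Points are the 2 libraries of each group and lines join group means; Cdkn1a lies above Normal at each day, Cdkn1b, Cdkn2c and Cdkn2d lie below it at days 1 to 3, and Cdkn2a never exceeds 0.485 TPM.

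With limma, 0 of 6 genes passed for VE at any single day, where 0.00926%, 14.6%, 52.5% and 0.0185% of all genes passed at days 1, 2, 3 and 5. At an unadjusted p under 0.05 there were 2, 0, 1 and 0 genes, Cdkn1c and Cdkn2b at day 1 and Cdkn1b at day 3, beside 13.2%, 36.7%, 58.6% and 1.65% of all genes. The numbers over all genes moved with single libraries and with the scaling. At day 2, 1582 genes passed, 0 after quantile normalization or without mitochondrial genes, and as few as 1 when 1 library was left out (replicate 2 of day 2, or either replicate of day 2 with VE, moved it by over 1.5 times). At day 1 the number was 1, and 1433, 3 and 0 when replicate 1 of day 1, replicate 2 of day 1 or replicate 1 of day 1 with VE was left out. At day 3, 5650 genes were higher and 16 lower with VE, against 1530 and 1146 after quantile normalization, and the number that passed fell to 3014 when replicate 1 of day 3 was left out. Cdkn1a had 245 and 213 TPM with VE at day 1, 209 and 211 at day 2, 164 and 149 at day 3 and 150 and 146 TPM at day 5, above both libraries without VE at each day. Averaged over the 4 days VE gave 0.22 ± 0.08 for Cdkn1a (adjusted p = 0.0312) and 0.31 ± 0.10 for Cdkn1b (adjusted p = 0.0167), 2 of 6 genes, beside 54.9% of all genes (5922 higher and 10 lower, against 970 and 684 after quantile normalization) and a median change of all genes of 0.36. Both were thus under the shift of all genes. The Cdkn1a call was lost in 11 of 16 fits that left out 1 library (adjusted p up to 0.0728) and the Cdkn1b call without replicate 1 of day 5 with VE, and neither passed without mitochondrial genes (0.08 and 0.19) or after quantile normalization (-0.0028 and -0.16), where Cdkn2b (-0.38, adjusted p = 0.019) and Cdkn2c (-0.52, adjusted p = 0.0261) passed as lower instead. After quantile normalization 4 genes passed as lower with VE at day 3, Cdkn1c (-0.82), Cdkn2b (-0.56), Cdkn2c (-0.996) and Cdkn2d (-1.18), where 0 passed on the deposited scale and Cdkn1c, Cdkn2b and Cdkn2c had values above 0. Cdkn2b was lower with VE at day 1, at 54.8 and 55.6 TPM against 79.0 and 80.8 TPM, without overlap (-0.52 ± 0.16, adjusted p = 0.26), and at 48.8 and 47.7 against 41.3 and 39.5 TPM at day 2 (0.25 ± 0.16, adjusted p = 0.278). A test of whether the effect of VE differed between days was passed by 0 of 6 genes, beside 1.75% of all genes (189, and 2 to 2477 when 1 library was left out, moved by over 1.5 times by 15 of the 16), with Cdkn2b at an unadjusted p of 0.0211 (adjusted p = 0.12), a threshold of 0.05 that 28.1% of all genes met unadjusted. Cdkn2a, which rose with VE in organoids, was at 0.0535 to 0.485 TPM with VE in crypts, where the gavage and the mixture of cells differ from the culture.

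**Figure D5:**
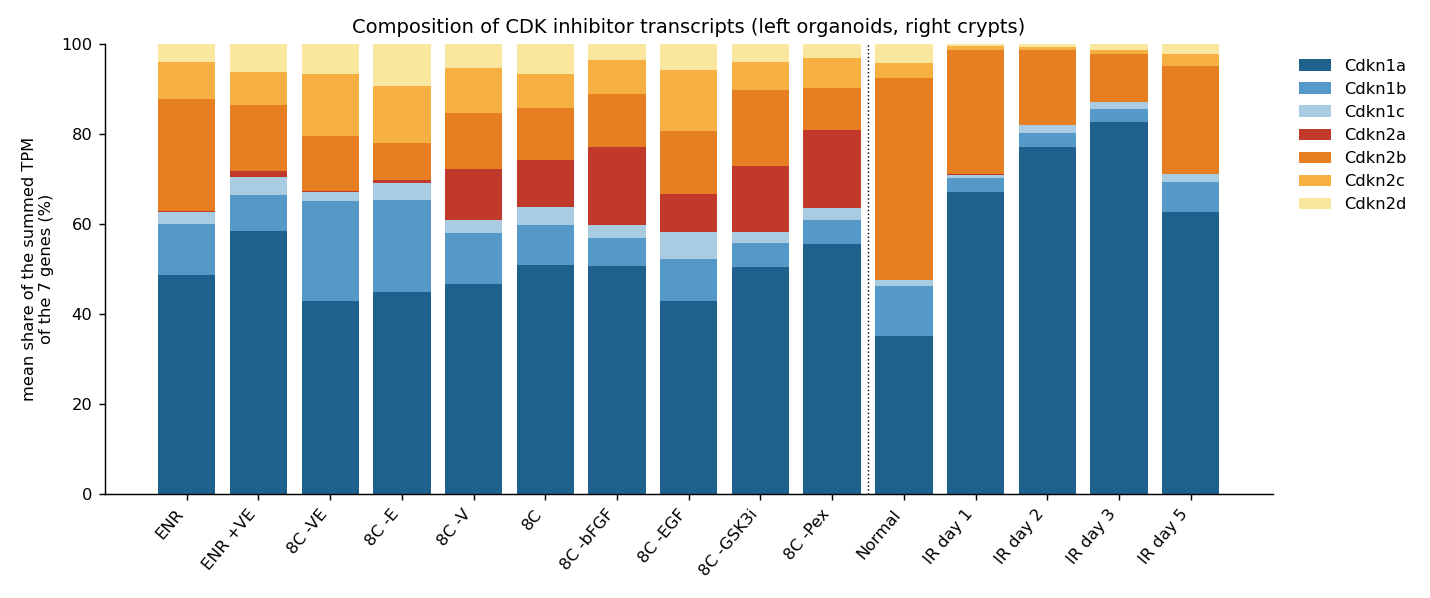
Mean share (%) of each gene in the summed TPM of the 7 CDK inhibitor genes, by organoid condition (left of the dotted line) and in Normal and irradiated crypts without VE (right). Cdkn1a takes the largest share in all organoid groups, Cdkn2a takes 0.125% in ENR and 10.5% in 8C, and in crypts Cdkn2b goes from 44.9% in Normal to 10.6% at day 3.

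Around them in the crypts, genes of the p53 pathway rose at day 1, 13 of 20 with none lower and a median of 1.05 beside -0.36, where 12.8% of all genes passed, led by Phlda3 (5.02), Ccng1 (3.02), Plk2 (2.49) and Eda2r (1.98). At day 2, 9 of them rose and 3 fell, at day 3, 8 rose and 5 fell, and at day 5, 5 rose and 3 fell, where 52.9%, 74.4% and 27.2% of all genes passed at these days. Of 14 proliferation markers all 14 fell at day 2, led by Top2a (-2.98), Mki67 (-2.35), Plk1 (-2.25) and Aurkb (-2.10), and 3 rose at day 5, Rrm2 (2.22), Mcm7 (1.23) and Mcm4 (0.99), beside a median of all genes of -0.61 and 0.27. Of 12 cyclins and kinases tested, Ccnd2, a partner of CDK4 and CDK6, rose at day 1 (2.10) and day 5 (2.28), and Ccnb2 and Ccna2 fell at day 1 (-1.70 and -1.02) and day 2 (-3.01 and -2.40). By correlation over the 18 crypt libraries, Cdkn1a was most like Abhd4 (r = 0.932), Ephx1 (r = 0.924) and the p53 target Ccng1 (r = 0.922). Cdkn1b was nearest to Etfa (r = 0.981), Cdkn2b to Dhrs3 (r = 0.954), Cdkn2c to Mrpl55 (r = 0.970), Cdkn2d to Iqsec2 (r = 0.899) and Cdkn1c to Sqor (r = 0.752).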

How the data were processed

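Bulk RNA-seq was analysed from 49 organoid and 18 crypt libraries of mouse small intestine. Per the labels and the study's methods, libraries were made with a NEBNext Ultra kit with no statement on strand, reads were trimmed with Trimmomatic 0.39, aligned to mm10 with STAR 2.7.3a and counted with featureCounts, and the authors deposited a table of TPM for 29579 genes. All its columns matched a library, and the authors' column sums ran from 983801 to 988144 TPM in organoids and from 819346 to 910935 TPM in crypts. TPM keeps no depth, so precision rests on the spread between libraries.

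Groups came from the labels. Genes averaging 1 TPM or more in the libraries of a fit were tested on log2(TPM + 1) with limma 3.58.1 (trend and robust) in R 4.3.3, two-sided, with Benjamini-Hochberg adjustment over all genes tested and a threshold of 0.05 with no minimum fold. An organoid comparison used the libraries of its groups, and crypts shared 1 fit of 9 groups. The code was tested on simulated data. The 7 members and the gene lists were chosen with earlier results of these data known. Named were all members and, per list and comparison, at most the 4 passing genes with the largest change; likeness took the nearest genes, at most 3 a member, leaving out Gm and Rik models.

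Same-numbered libraries deviated together, with every correlation of deviations from the group means over 0.1, in 8C -VE against ENR (0.313 to 0.642), 8C -E against 8C -VE (0.647 to 0.775), 8C -V against 8C -VE (0.690 to 0.774) and 8C against 8C -V (0.106 to 0.598). There the number was taken as pairing, from the data and not from the labels, and the fit with the replicate block is given where it changes a call. Alternatives were another pseudocount (0.1 TPM), quantile normalization, no filter, the replicate block, other fits, subsets of replicate numbers, removal of 13 mitochondrial genes in crypts and leaving out each library.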

Additional observations from a re-analysis of the deposited data

Results flagged for a closer look

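In 35 sets of 1 gene in 1 organoid group of 6 or 7 libraries, the highest or lowest library was compared with the others on log2(TPM + 1) by the gap to its nearest neighbour over the whole range. In 3 of them 1 library stood apart beyond Dixon's 95% limit, where chance flags about 1 in 20. Cdkn1a in 8C -VE replicate 7 was at 287 TPM with 96.6 to 116 TPM in the others, a gap of 0.832 of the range. Cdkn1a in 8C -E replicate 7 was at 400 TPM with 109 to 184 TPM in the others, a gap of 0.597. Cdkn2b in 8C -E replicate 7 was at 57.6 TPM with 21.1 to 30.7 TPM in the others, a gap of 0.630. All 3 are libraries of replicate number 7. Groups of 2 or 3 libraries were not tested.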

How the results depend on the processing

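Over 69 results and 458 values under other settings, 382 kept their direction and side of the threshold, 38 newly passed, 24 no longer passed and 14 turned direction. The rise of Cdkn2a with EPZ6438 alone in 8C medium, and with both compounds in ENR medium, passed under every setting run, though Cdkn2a enters these tests only through the group in which it is high, and its size in 8C depended on which 8C libraries entered. Restricting to replicate numbers 1 to 3 changed the number of the 7 genes that passed from 3 to 5 in 8C against ENR (33.5% of all genes), from 1 to 5 in 8C -E against 8C -VE (29.7%) and from 0 to 2 in 8C against 8C -V (9.58%), with Cdkn1c higher and Cdkn2b lower, and numbers 4 to 6 gave 4 in the last (34.5%) and 1 (from 0) for the interaction (3.87%). With ENR numbers 4 to 6 alone, ENR +VE gave 7 (from 4), where 49.2% of all genes passed. With 8C numbers 1 to 3 alone, the omissions of bFGF, EGF, GSK3i and Pex gave 3, 2, 5 and 3 (from 0 each; 10.9%, 7.41%, 18.2% and 12.7% of all genes), and with 4 to 6 that of EGF gave 3 (13.1%). The replicate block gave 4 (from 1) in 8C -E against 8C -VE, 2 (from 0) in 8C against 8C -V, 5 (from 3) in 8C against 8C -E (11.2% of all genes) and 1, 3 and 1 (from 0) for bFGF, GSK3i and Pex (4.68%, 6.82% and 4.46%), and in ENR +VE, where the block fit uses ENR 1 to 3 alone, it made Cdkn1a (0.50) and Cdkn2b (-0.64) pass. Beyond these and the calls given with the comparisons, the block changed no count by over 1.5 times; outside the 4 paired comparisons the libraries share only a number. With all 10 organoid groups in the fit, 2 and 5 genes passed in 8C -E against 8C -VE and in 8C against 8C -E. Quantile normalization gave 1 in 8C against 8C -V, 1 in 8C against 8C -E, 2 (from 4) at day 1 and 4 (from 0) for VE at day 3, where a pseudocount of 0.1 TPM gave 1. A fit of only the groups compared gave 1 at day 1, and without mitochondrial genes 0 (from 2) passed for VE over days. Directions turned for Cdkn1a in 8C against ENR (-0.31, numbers 1 to 3) and against 8C -V (-0.092, numbers 1 to 3), for Cdkn2b in 8C against ENR (0.26, numbers 4 to 6) and in ENR +VE (0.37, ENR 4 to 6), for Cdkn2a in 8C against 8C -V (0.12 with the replicate block, 1.36 for numbers 4 to 6), in the interaction (0.56, numbers 4 to 6), without bFGF (-0.28), GSK3i (-0.38) or Pex (-0.10) against 8C 4 to 6 and without EGF (0.15 with the block and against 8C 1 to 3), and for VE over days by quantile normalization (Cdkn1a -0.0028, Cdkn1b -0.16). Outside the 69 results, Cdkn2b in 8C against 8C -V turned from 0.19 to -0.60 (adjusted p = 0.0341) among numbers 1 to 3. Cdkn1c, Cdkn2b and Cdkn2c turned for VE at day 3 after quantile normalization. Leaving out 1 library gave 0 to 1 genes in 8C against 8C -V, 1 to 3 in 8C against 8C -E, 0 to 1 for Pex, 0 to 1 for VE at day 3 and 0 to 2 for VE over days, and Cdkn2a between -0.52 and 0.12 in 8C against 8C -V. Where replicate numbers of day 1 or day 2 were crossed against Normal, chosen after seeing the data, 1537 and 5588 genes passed (from 1378 and 5711). Higher genes made up 72.3% of the calls in 8C against ENR and 47.8% after quantile normalization, and 5.27% and 50.1% at day 3. The cause of these changes was not tested. TPM gives no depth, so low levels such as Cdkn2a in crypts carry an unknown counting error.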
